A study of Mus musculus with 38 samples.

Results

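The 7 B lineage genes, Ebf1, Pax5, Cd79a, Cd79b, Ms4a1, Cd74 and Blnk, were followed through every library of an ATAC-seq series on sorted mouse CD8+ T cells. Each peak was given to the protein-coding gene whose body lay nearest to it, up to 100000 bp away, and the peaks so given to 1 of these 7 genes made up the set. It held 90 of 242933 peaks, 26 of 73610 in the table of endogenous tumour-infiltrating cells and 64 of 169323 in the table of OT-1 and naive cells. Peaks were assigned by position alone, and the genes themselves were chosen with earlier results of these data known. The question set for these peaks was whether their accessibility follows the sorted T cell states or marks stray B cells in single libraries.

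In ATAC-seq the transposase Tn5 cuts open chromatin, so that reads pile up at accessible DNA. The cells came from C57BL/6J mice of 10 to 12 weeks (young) or 64 to 68 weeks (aged). The mice were wild-type apart from the transgenic receptor of the OT-1 cells, and tumours were B16-OVA melanomas taken on day 15. Endogenous infiltrating CD8+ cells were sorted into progenitor exhausted Tprog (Slamf6+ Tim-3-, 4 young and 3 aged libraries), terminally exhausted Tterm (Slamf6- Tim-3+, 5 young and 3 aged) and Tadys (Slamf6- Tim-3-, 2 aged). OT-1 cells, whose transgenic receptor recognises ovalbumin, gave 2 young and 2 aged Tprog and 7 young and 6 aged Tterm libraries, with the same gates. The labels do not say which hosts the OT-1 cells had been in. Naive CD8+ cells from spleen gave 2 young and 2 aged libraries. The series describes pools that made 2 or 3 biological replicates, so a p-value here reflects the scatter of the libraries, and some of that scatter may be technical.

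As background, Ebf1 and Pax5 are the transcription factors that specify B cells and hold their identity, and Pax5 represses genes of other lineages, T cell genes among them. Cd79a and Cd79b are the signalling chains of the B cell receptor, Blnk is the adaptor downstream of it, and Ms4a1 encodes CD20, a surface protein of mature B cells. Cd74 is the invariant chain that guides MHC class II molecules. It is made by B cells, dendritic cells and macrophages and is not confined to the B lineage. Accessible chromatin at a gene is not expression of that gene.

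The windows around the transcription starts of 4 members were taken from RefSeq (GRCm38.p6), 250 bases before the start and 50 after it, because the tables hold a peak at some of these starts and not at others. They are Pax5 (chr4:44710645-44710944, minus strand), Blnk (chr19:40994172-40994471, minus strand), Cd79a (chr7:24897247-24897546, plus strand) and the upstream of 2 listed Ebf1 starts (chr11:44617850-44618149, plus strand), each printed along its own strand. Capitals mark motif letters found on either strand, and none of the marked runs overlap.
Pax5: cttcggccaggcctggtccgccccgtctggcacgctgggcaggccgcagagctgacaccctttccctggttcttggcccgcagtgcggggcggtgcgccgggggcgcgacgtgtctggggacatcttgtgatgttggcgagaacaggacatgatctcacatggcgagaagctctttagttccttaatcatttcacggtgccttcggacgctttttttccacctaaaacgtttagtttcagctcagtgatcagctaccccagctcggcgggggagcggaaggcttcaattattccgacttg
Blnk: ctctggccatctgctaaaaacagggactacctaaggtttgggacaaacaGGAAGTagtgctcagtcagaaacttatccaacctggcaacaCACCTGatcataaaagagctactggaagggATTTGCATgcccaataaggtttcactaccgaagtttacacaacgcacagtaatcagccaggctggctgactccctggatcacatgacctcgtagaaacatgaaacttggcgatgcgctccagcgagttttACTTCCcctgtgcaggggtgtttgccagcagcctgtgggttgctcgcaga
Cd79a: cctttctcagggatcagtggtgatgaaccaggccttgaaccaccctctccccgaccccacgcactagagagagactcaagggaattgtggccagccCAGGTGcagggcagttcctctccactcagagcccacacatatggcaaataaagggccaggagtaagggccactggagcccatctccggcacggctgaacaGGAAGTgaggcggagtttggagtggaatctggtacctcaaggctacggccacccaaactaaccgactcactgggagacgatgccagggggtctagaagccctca
Ebf1: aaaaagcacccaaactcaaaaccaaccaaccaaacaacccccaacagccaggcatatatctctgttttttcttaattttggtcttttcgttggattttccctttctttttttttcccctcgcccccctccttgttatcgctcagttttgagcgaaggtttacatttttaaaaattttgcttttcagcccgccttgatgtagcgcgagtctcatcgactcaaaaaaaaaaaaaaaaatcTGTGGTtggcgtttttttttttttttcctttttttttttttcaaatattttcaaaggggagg
The Blnk window held the octamer ATGCAAAT, present in 1.74% of 32851 such windows, the E box CAGGTG (20.2%) and a pair of ETS cores GGAAGT (23.8%). The Cd79a window held CAGGTG and GGAAGT, and the Ebf1 window the Runx core TGTGGT (16.8%). None of these motifs was found in the Pax5 window, which held 23 CG dinucleotides, more than 78.5% of all windows. The paired half-site of EBF factors (in 0.904% of windows) was in none of those shown. These are matches of letters and not binding sites. Neither table held a peak within 1000 bp of the Pax5 start, where the nearest lay 1803 bp away in the endogenous table and 2262 bp away in the other. At Blnk the nearest lay 30750 and 16387 bp from the start. Ebf1 had 4 peaks within 1000 bp of a start in each table.

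Depth, in megareads in peaks per library, was 4.64 to 87.6 in the endogenous table and 6.80 to 27.7 in the other. Values are reads per peak divided by a size factor per library, called normalized reads, and comparisons were made within a table only, because each table has its own normalization. Peaks near the ends of the T cell genes Cd8a and Cd3e held 617 to 1265 and 937 to 1545 normalized reads in the endogenous libraries, and 303 to 646 and 335 to 946 in the others. The library aged OT-1 Tprog 1 stood apart. Its correlation over all peaks was 0.731 with its group mate and 0.788 with the nearest other group, and it had the lowest depth of its table, so member calls of aged OT-1 Tterm against Tprog are given with and without it. In libraries of bulk cells, fewer cells of a type and less accessibility per cell cannot be told apart.

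Where these genes had peaks differed from gene to gene. In the endogenous table Ebf1 had 13 peaks and Pax5 had 10, Cd79b, Cd74 and Blnk had 1 each, and Cd79a and Ms4a1 had none. All 26 passed the filter of a mean of 10 or more normalized reads over the table. In the OT-1 and naive table Ebf1 had 27, Pax5 20, Cd74 6, Blnk 5, and Cd79a, Cd79b and Ms4a1 2 each. Of these 64, 26 passed the filter, 11 of Ebf1, 9 of Pax5, 2 of Cd74, 2 of Cd79b, 1 of Blnk and 1 of Cd79a. The other 38 fell under the filter and were tested only in the fit with no filter. Per kilobase of peak, the level of tested peaks at the ends of member genes averaged 167 normalized reads in the endogenous table and 50.0 in the other, against 396 and 233 for 15 T lineage genes. The highest peaks of the set ranked in the middle to upper part of their tables. The Cd74 peak exceeded 70.0% of tested endogenous peaks per kilobase the highest Pax5 peak 71.1% and the highest Ebf1 peak 72.6%, whereas the Cd79b peak exceeded 11.3%.

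Pax5 carried the most regular pattern among the endogenous cells. A group of 3 peaks in the first part of the gene, about 35, 37 and 46 kb past the start, were lower in Tterm than in Tprog of young mice, while the highest Pax5 peak, about 85 kb past the start, did not pass the test. Over all peaks tested, 25.6% were called in this comparison and 11.3% were lower. All 4 lie inside the gene. The peak 35274 bp past the start (chr4:44674928-44675420) held 161, 81.8, 101 and 128 normalized reads in young Tprog and 69.4, 35.4, 45.4, 37.9 and 25.7 in young Tterm. In aged mice it held 127, 194 and 135 in Tprog and 40.5, 40.7 and 30.7 in Tterm. Every Tterm library lay below every Tprog library of its age. The mean was 118 ± 34.2 (SD, n = 4) against 42.7 ± 16.5 (n = 5) in young mice, a log2 difference of -1.48 ± 0.28 (SE, adjusted p = 2.56e-04), and 152 ± 36.7 against 37.3 ± 5.74 (n = 3 each) in aged mice, a log2 difference of -1.98 ± 0.35 (adjusted p = 2.15e-04). Log2 differences here are on the log2(normalized reads + 1) scale.

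The neighbouring Pax5 peak 37510 bp past the start (chr4:44671715-44673184) went the same way. It held 232, 146, 195 and 161 normalized reads in young Tprog and 114, 94.8, 70.7, 73.5 and 91.3 in young Tterm, and 146, 189 and 153 in aged Tprog against 81.8, 81.4 and 78.7 in aged Tterm. The groups did not overlap at either age. The log2 difference was -1.04 ± 0.21 in young (adjusted p = 3.76e-04) and -0.99 ± 0.25 in aged cells (adjusted p = 0.00774, and 0.0501 without aged Tprog 2). At the peak 46094 bp past the start (chr4:44664038-44664600), young Tprog held 49.6 to 59.0 and young Tterm 12.1 to 36.2, again without overlap (log2 -1.28 ± 0.34, adjusted p = 0.00516).

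The peak 85034 bp past the Pax5 start (chr4:44624198-44625660) gave other values. Young Tprog held 333, 371, 504 and 301 normalized reads and young Tterm 396, 348, 266, 290 and 273. These ranges overlapped, and the log2 difference was -0.25 ± 0.18 (adjusted p = 0.350). A peak closer to the start (chr4:44703553-44705070) held 151 to 263 over all 17 endogenous libraries. Another called peak, 1803 bp before the Pax5 start (chr4:44712497-44713651), was lower in young Tterm with overlapping values (75.8 ± 39.5 in Tprog and 39.1 ± 19.4 in Tterm, log2 -0.95 ± 0.34, adjusted p = 0.0400). That call rested on single libraries: without young Tprog 3, which held 135, the difference was -0.64 (adjusted p = 0.217), and it was also lost without young Tprog 2 or young Tterm 2, 4 or 5.

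**Figure D1:**
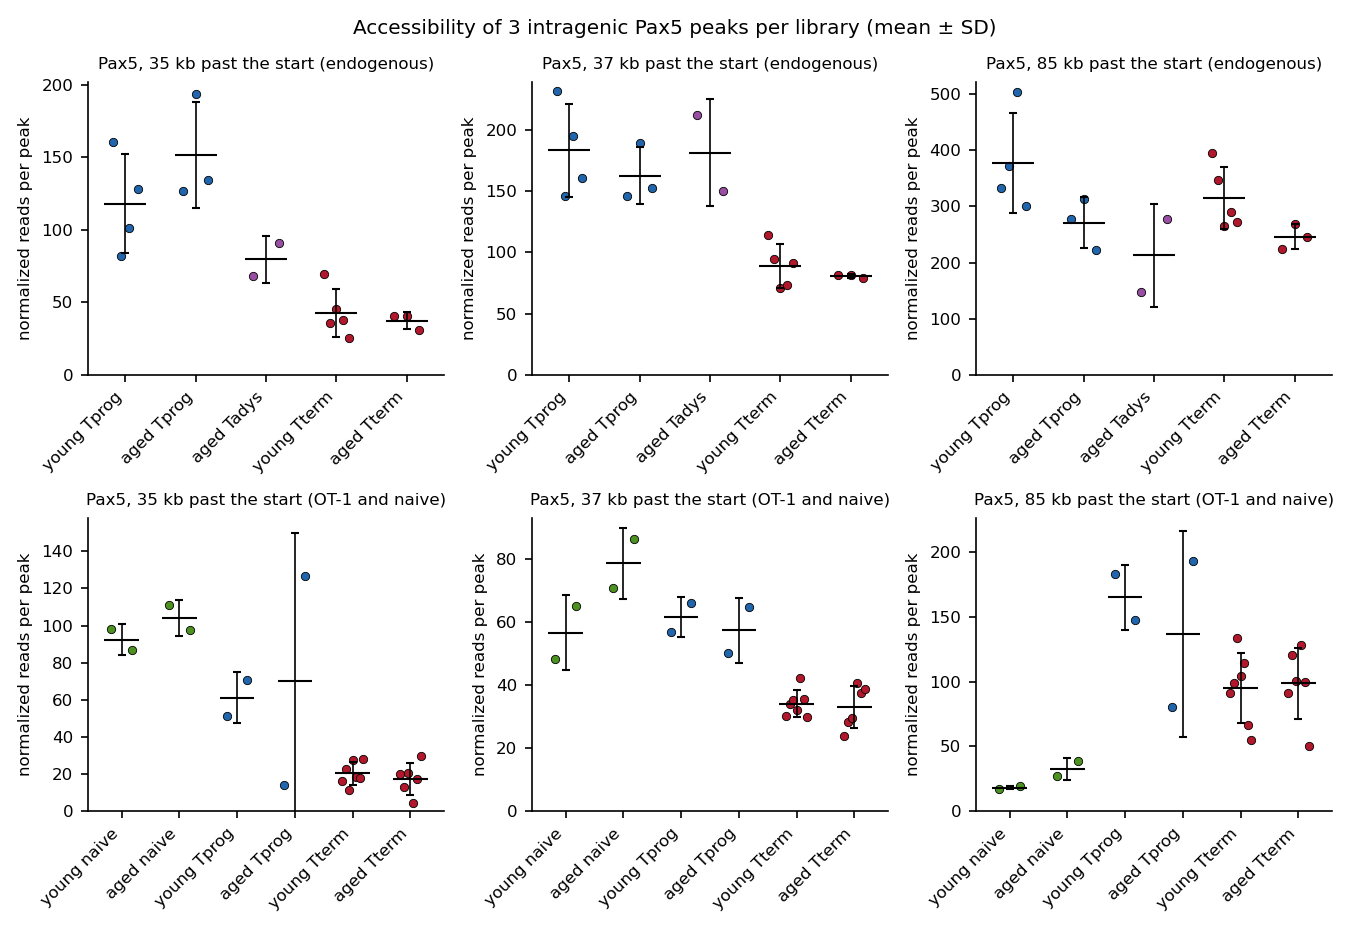
Normalized reads (linear axis, from 0) of 3 Pax5 peaks in each library of the endogenous table (top) and of the OT-1 and naive table (bottom), points for libraries, lines for the mean and bars for the SD. In the panels for 35 and 37 kb the endogenous Tterm points lie under the Tprog points, and naive points stand high at 35 kb and lowest at 85 kb. The SD bar of aged OT-1 Tprog at 35 kb runs below the axis.

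In the OT-1 and naive table the Pax5 peaks about 35 and 85 kb past the start moved in opposite directions between naive cells and tumour cells. The 35 kb peak (chr4:44674674-44675447) held 98.3 and 86.6 normalized reads in young naive, 111 and 97.4 in aged naive, and 51.3 and 70.7 in young OT-1 Tprog cells. In young OT-1 Tterm it held 11.4 at the lowest, 18.7 at the median and 28.1 at the highest, and in aged OT-1 Tterm 4.19, 18.6 and 29.8. Aged OT-1 Tprog held 14.0 in library 1, which stood apart, and 127 in library 2. Young Tterm lay below young naive cells without overlap (20.3 ± 6.07, n = 7, against 92.5 ± 8.29, n = 2, log2 -2.34 ± 0.56, adjusted p = 0.00180). Against young Tprog the difference was -1.74 ± 0.56 and missed the threshold (adjusted p = 0.0592), although the libraries did not overlap.

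The 85 kb Pax5 peak (chr4:44624088-44625486) held 17.4 and 19.2 normalized reads in young naive and 26.9 and 38.6 in aged naive cells. Young OT-1 Tprog held 183 and 147, aged OT-1 Tprog 80.3 and 193. Young OT-1 Tterm ran from 54.7 over a median of 99.0 to 134, and aged OT-1 Tterm from 50.6 over 100.2 to 128. Every tumour library was above every naive library. Young Tterm was higher than young naive by 2.52 ± 0.28 on the log2 scale (adjusted p = 1.43e-07), and young Tprog by 3.10 ± 0.34 (adjusted p = 4.48e-07), with the same naive libraries in both comparisons. The ratio of the 35 kb to the 85 kb peak within a library was 4.50 to 5.67 in young naive and 2.53 to 4.13 in aged naive cells, and 0.0326 to 0.656 in the 17 OT-1 libraries. Among the endogenous libraries it was 0.201 to 0.619 in Tprog, 0.328 to 0.459 in Tadys and 0.0941 to 0.180 in Tterm. Peak borders differ between the tables, so these ratios are comparable within a table only. Naive cells were of another tissue and of sequencing batch 3, which held no tumour library, so cell state, tissue and batch cannot be told apart in any comparison with them.

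**Figure D2:**
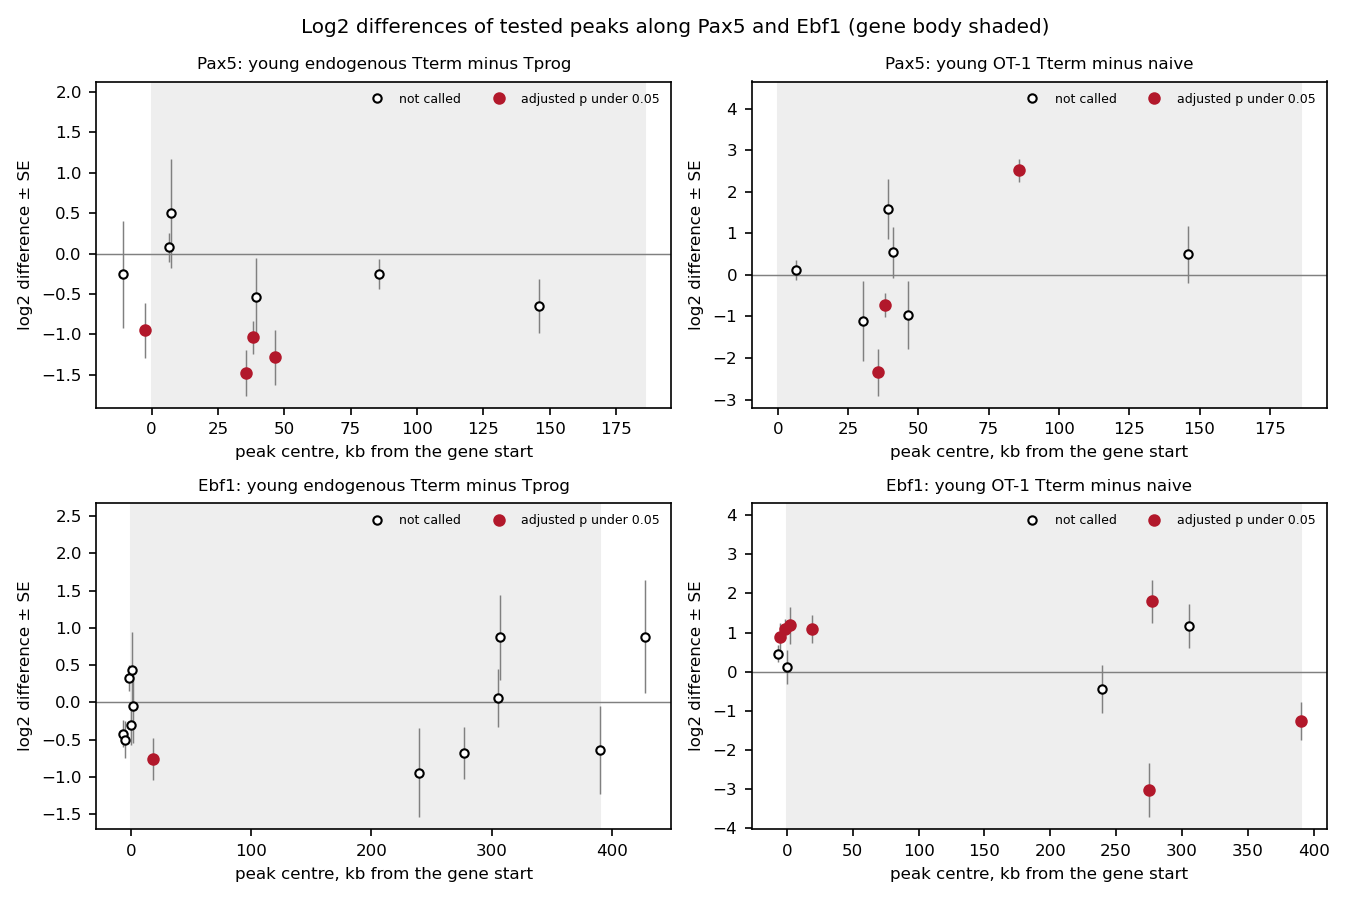
Log2 difference ± SE (from the fit) of each tested peak of Pax5 (top) and Ebf1 (bottom) by the position of the peak centre in kb from the gene start, for young endogenous Tterm minus Tprog (left) and young OT-1 Tterm minus naive (right). Filled points passed an adjusted p of 0.05, and the gene body is shaded. Along Pax5 the called endogenous points are all below 0, and the OT-1 panel holds -2.34 at 35 kb and 2.52 at 85 kb.

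Ebf1 peaks did not move as a block. Among endogenous cells, the peak 15954 bp past a listed start and inside the gene (chr11:44636182-44637307) held 80.4, 65.3, 128 and 93.3 normalized reads in young Tprog and 67.5, 48.8, 68.1, 44.0 and 39.4 in young Tterm. In aged cells it held 161, 157 and 165 in Tprog and 83.5, 64.2 and 47.2 in Tterm. The groups overlapped in young and not in aged mice. Tterm was lower by -0.76 ± 0.28 in young cells (adjusted p = 0.0489) and by -1.33 ± 0.35 in aged cells (adjusted p = 0.00942). The young call was lost without any 1 of 6 libraries, young Tprog 1, 3 or 4 or young Tterm 2, 4 or 5, with a highest adjusted p of 0.188 without Tprog 3, and the aged call without aged Tterm 3 (-1.13, adjusted p = 0.0700).

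The strongest Ebf1 peak of the endogenous table, 638 bp before the gene (chr11:44616626-44617462), ran the other way in aged cells. It held 135, 146 and 139 normalized reads in aged Tprog and 233, 197 and 262 in aged Tterm, with no overlap (log2 0.71 ± 0.21, adjusted p = 0.0255). Leaving out aged Tprog 1, 2 or 3 or aged Tterm 1 or 3 lost the call, with a highest adjusted p of 0.130 without Tterm 3 (0.62). In young cells the same peak held 147, 150, 201 and 164 in Tprog and 219, 240, 231, 195 and 155 in Tterm, and was not called.

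Between young naive and young OT-1 Tterm cells, 7 of the 11 tested Ebf1 peaks were called, 5 higher and 2 lower in Tterm, where 40.3% of all tested peaks were called. The peak 621 bp before the gene (chr11:44616530-44617479) held 38.6 and 51.3 normalized reads in young naive and 79.2 to 108 (median 95.2) in young OT-1 Tterm cells. Those ranges did not overlap (log2 1.11 ± 0.25, adjusted p = 0.00112, and 0.90 with adjusted p = 0.0552 without young naive 1). Far inside the gene, the peak chr11:44892901-44893373 held 57.2 and 48.1 in young naive, 15.1 and 16.3 in aged naive and 1.25 to 13.7 (median 8.59) in young OT-1 Tterm. Young naive stood above every other library there (log2 of young Tterm minus naive -3.02 ± 0.69, adjusted p = 0.00108). Its neighbour about 274 kb past a start (chr11:44894731-44895294) went up, from 6.90 ± 2.96 (n = 2) in young naive to 22.5 ± 5.17 (n = 7) in young OT-1 Tterm, without overlap (log2 1.80 ± 0.55, adjusted p = 0.0105, and 1.41 with adjusted p = 0.162 without young naive 2). The remaining called Ebf1 peaks were higher by 0.89, 1.18 and 1.09 and lower by -1.26 on the log2 scale, and each of these calls was lost without young naive 1 and without young naive 2.

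Young OT-1 Tprog differed from young naive cells at 4 tested Ebf1 peaks, 3 higher and 1 lower, where 24.2% of all tested peaks were called. The peak chr11:44635915-44637822 held 23.1 and 18.4 normalized reads in young naive and 70.3 and 80.2 in young OT-1 Tprog cells (log2 1.81 ± 0.44, adjusted p = 0.00407, and 1.66 with adjusted p = 0.0505 without young naive 2). Both young Tprog libraries were far above every naive library there, but the highest value of the table was 92.8 in aged OT-1 Tterm 1. Aged naive cells held 5.88 and 14.4 at this peak. The call at chr11:44923160-44923541 (log2 2.35 ± 0.67, adjusted p = 0.0123) was lost without young naive 2 (adjusted p = 0.0962) or young Tprog 2 (0.136). Calls at the peaks about 272 and 274 kb past a start were lost when any of the 4 libraries was left out.

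Of the B cell receptor chains, Cd79a had no peak at all in the endogenous table. In the other table a peak 143 bp before its start (chr7:24897053-24897354), which overlaps the window printed above, fell under the filter. It averaged 7.77 normalized reads over the table, with 14.5 and 14.1 in young OT-1 Tprog as the highest values and 3.86 and 9.62 in young naive cells. The young OT-1 Tprog libraries were the highest of the table there, with 13.3 in aged OT-1 Tterm 1 next to them. A higher Cd79a peak (chr7:24901224-24902271) lies at the far end of the gene and 715 bp from Arhgef1, a neighbouring gene active in leukocytes, so its assignment to Cd79a rests on distance alone. It held 108 and 109 in young naive, 73.6 and 87.2 in young OT-1 Tprog and 61.1 to 106 (median 66.7) in young OT-1 Tterm cells. Young Tterm libraries lay under both young naive libraries (log2 -0.69 ± 0.27, adjusted p = 0.0452). That call was lost without young naive 1 (adjusted p = 0.182), without young naive 2 (0.192) and without young Tterm 2, 3, 4 or 5.

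Cd79b showed low, scattered values. Its single endogenous peak (chr11:106313746-106314493) held 78.1 and 82.0 normalized reads in Tadys and 26.9, 40.4 and 7.48 in aged Tprog. Aged Tterm held 17.2, 38.6 and 25.7, young Tprog 47.3, 22.1, 36.4 and 51.0, and young Tterm 22.5, 21.2, 13.5, 21.2 and 32.8. The 2 Tadys libraries were above all 15 others. Tadys exceeded aged Tprog by 1.92 ± 0.58 on the log2 scale (80.1 ± 2.75 against 24.9 ± 16.5, adjusted p = 0.0441), and the difference from aged Tterm was 1.60 ± 0.58 (adjusted p = 0.0946). The first call was lost without Tadys 1 (adjusted p = 0.154), Tadys 2 (0.108) or aged Tprog 3 (1.25 and 0.195), and with array weights (0.158), the replicate block (0.0947) and edgeR (0.0769).

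In the OT-1 and naive table both Cd79b peaks were higher in young naive than in young OT-1 Tprog cells. The one nearer the upper end (chr11:106314141-106314784) held 30.8 and 33.7 normalized reads in young naive, 23.5 and 34.6 in aged naive and 10.0 and 2.36 in young OT-1 Tprog. Both Tprog libraries were lower than all 4 naive ones (log2 -2.45 ± 0.71, adjusted p = 0.0133). Young OT-1 Tterm ran from 7.77 over 18.8 to 38.2 and reached the naive values. The second peak (chr11:106313600-106314069) gave -1.60 ± 0.59 (adjusted p = 0.0485), a call lost when any of the 4 libraries was left out. The first was lost without young naive 1 (-2.51, adjusted p = 0.0678), young naive 2 (-2.39, 0.0845) or young Tprog 2 (-1.59, 0.213).

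Blnk had its only tested peak inside the gene in each table. The endogenous one (chr19:40962863-40963471) held 36.1 to 84.9 normalized reads over the 17 libraries, the groups overlapped in all 6 comparisons, and none of them called it. Young Tterm minus young Tprog was 0.10 ± 0.27 (adjusted p = 0.842). In the other table (chr19:40962725-40963738) young naive held 63.6 and 66.6, aged naive 40.3 and 29.4, and young OT-1 Tterm 18.3 to 59.4 (median 26.3). Both young naive libraries were above every Tterm library (65.1 ± 2.08 against 30.7 ± 13.8, log2 -1.37 ± 0.36, adjusted p = 0.00371, and 0.0509 without young naive 2).

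Ms4a1 had no peak in the endogenous table and none that passed the filter in the other. Its peaks there, both at the upper end of the gene (chr19:11265403-11265789 and chr19:11265878-11266184), averaged 4.92 and 8.83 normalized reads. At the second, young naive held 2.57 and 3.21, aged naive 0 and 5.23, and the highest value of any library was 24.0 in aged OT-1 Tterm 5. Naive libraries were thus among the low ones at this CD20 gene.

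Cd74 had the peak with the most reads in each table and was lower in Tterm than in Tprog in young mice of both tables. The endogenous peak (chr18:60803121-60805713) covers the lower end of the gene and held 669, 447, 737 and 543 normalized reads in young Tprog and 581, 263, 404, 380 and 290 in young Tterm. Tterm 1 reached into the Tprog range, and the other Tterm libraries lay under it. The mean fell from 599 ± 129 (n = 4) to 384 ± 125 (n = 5), a log2 difference of -0.67 ± 0.19 (adjusted p = 0.00853). Aged Tprog held 580, 724 and 606, aged Tterm 605, 409 and 410 and Tadys 393 and 542, and the aged difference was -0.44 ± 0.23 (adjusted p = 0.242).

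In the other table the Cd74 peak (chr18:60803027-60805992) held 212 and 283 normalized reads in young OT-1 Tprog and 120 to 145 (median 138) in young OT-1 Tterm cells, without overlap. Young Tterm was lower by -0.86 ± 0.24 (adjusted p = 0.0246), and by -0.85 within batches 4 and 5 (adjusted p = 0.0161). Leaving out young Tprog 2 gave -0.66 (adjusted p = 0.423), leaving out young Tprog 1 gave -1.07 (0.0661), and with no filter on low values the adjusted p was 0.0503. Aged OT-1 Tprog held 162 and 261 and aged OT-1 Tterm 66.3 to 120 (median 111), also apart (log2 -0.998 ± 0.29, adjusted p = 0.0208). Without aged Tprog 1, the library that stood apart, the difference was -1.34 (adjusted p = 0.00638). The call was lost without aged Tprog 2 (-0.65, adjusted p = 0.108), with the replicate block (-0.73, 0.274), with array weights (-0.95, 0.338) and within batch 6 alone (-0.91, 0.959), where 1 Tterm library remained. Naive cells held 219 and 233 (young) and 275 and 209 (aged), and young Tterm was below young naive by -0.75 ± 0.24 (adjusted p = 0.0151), a call lost without young naive 1 (adjusted p = 0.0833) or 2 (0.126).

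**Figure D3:**
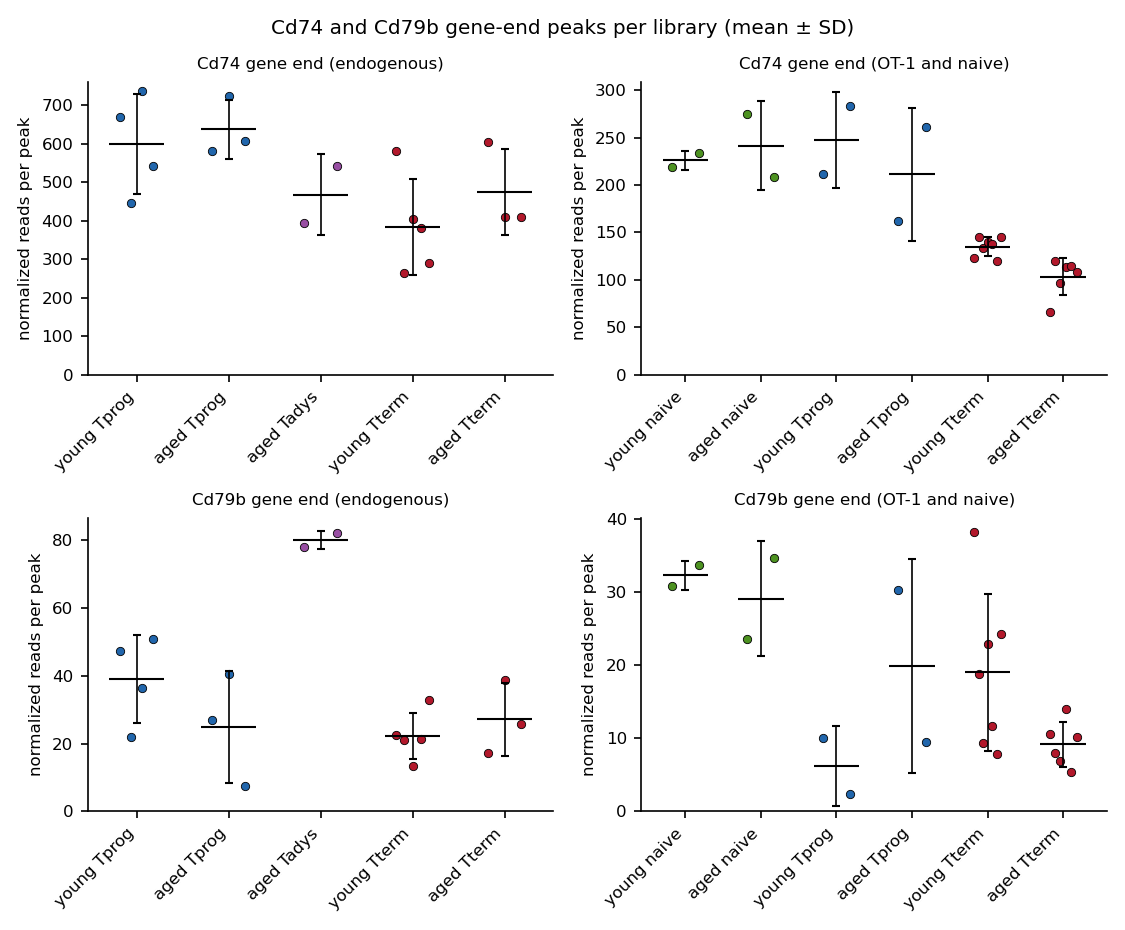
Normalized reads (linear axis, from 0) of Cd74 and Cd79b peaks in each library, with the mean and SD of each group, in the endogenous table (left) and the OT-1 and naive table (right). Young OT-1 Tterm libraries lie at 120 to 145 for Cd74, under both young Tprog libraries, and the Tadys libraries at 78.1 and 82.0 for Cd79b are the highest of the endogenous table.

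Counted over the set, young endogenous Tterm differed from Tprog at 6 of 26 tested peaks, all 6 lower (4 of Pax5, 1 of Ebf1 and 1 of Cd74). Over all 71756 tested peaks 25.6% were called, 11.3% lower. With libraries scaled to equal totals the split over all peaks was 6025 higher and 11249 lower, in place of 10261 and 8115, and the members gave 8 lower and none higher. Groups did not overlap at 3 of the 6, all of Pax5, and the share without overlap was not counted over all called peaks. The median log2 difference of the 26 was -0.46, against -0.01 over all tested peaks. In aged mice 4 of 26 were called, 3 lower and 1 higher, with a background of 12.1% (5.37% lower and 6.75% higher), a median of 0.03 and 0.01 over all peaks. Without aged Tprog 2, or without aged Tterm 3, the count was 2. Whether the contrast differed between the ages was tested with limma as an interaction, which passed at none of the 26 members (4 at an unadjusted p under 0.05) and at no endogenous peak at all.

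Young OT-1 Tterm differed from Tprog at 1 of 26 peaks, Cd74, lower, with 3.57% of all 84091 tested peaks lower and 7.63% called either way. Aged OT-1 Tterm differed from Tprog at 2, Cd74 and the 85 kb peak of Pax5, both lower, with 3.39% of all peaks lower and 14.7% called. Equal totals moved the aged split over all peaks from 9477 higher and 2850 lower to 5745 and 6047, and the members to 4 lower. The Pax5 call had overlapping groups (137 ± 79.7 in Tprog and 98.6 ± 27.4 in Tterm) and a difference of -1.15 ± 0.33 (adjusted p = 0.0208). It became -1.78 without aged Tprog 1, -0.53 (adjusted p = 0.226) without aged Tprog 2, -1.04 (0.0858) without aged Tterm 6, -0.39 (0.476) with no batch term and -1.28 (0.959) within batch 6, and it was also lost with the replicate block and with array weights. Without aged Tprog 1 there were 3 member calls, all lower, and without aged Tterm 6 there was 1, lower. Without aged Tprog 2, which leaves the library that stood apart as the only Tprog library, there were 4, all higher, so the direction of the member calls rests on aged Tprog 2. With the replicate block the single call was of a higher peak and neither of the 2 lower calls held.

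Against young naive cells, young OT-1 Tterm differed at 13 of 26 peaks, 6 higher and 7 lower, and young OT-1 Tprog at 7, 4 higher and 3 lower. The background was 40.3% of all tested peaks for Tterm (22.4% higher and 17.9% lower) and 24.2% for Tprog (15% higher and 9.15% lower). None of these 20 calls had overlapping groups, but the share without overlap was not counted over all called peaks. With 2 libraries in the naive group, little weight rests on it. Both comparisons share the 2 young naive libraries. Without young naive 1 the calls were 5 and 3, without young naive 2 they were 4 and 1, and without young Tprog 2 the second count was 2. With equal library totals the Tterm split of members was 3 higher and 8 lower, and that of all peaks 17018 higher and 21934 lower in place of 18877 and 15020.

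Calls by age were few among the members and, in Tterm and Tprog, among all tested peaks as well. Aged and young Tterm differed at none of 26 peaks in limma, edgeR or DESeq2, both among endogenous cells (0.00836% of all peaks called by limma, 3 members at an unadjusted p under 0.05) and among OT-1 cells (0.266%, 4 members). In endogenous Tprog, where 0.166% of all peaks were called (0.0836% lower), 1 member was, an Ebf1 peak about 274 kb past a start (chr11:44894687-44895282). It held 92.2, 96.5, 95.8 and 89.3 normalized reads in young and 15.4, 22.2 and 34.9 in aged Tprog, so that the aged libraries were all far under the young ones (log2 -1.98 ± 0.40, adjusted p = 0.0301). The call was lost with edgeR (adjusted p = 0.0614), with the replicate block (0.0865) and without each single library except aged Tprog 3, up to 0.123 without aged Tprog 1. Aged and young naive cells differed at 1 of 26, with 5.24% of all peaks called (1.16% lower), a low Ebf1 peak (chr11:44857069-44857895) with 21.2 and 17.6 in young and 0.840 and 3.92 in aged naive (log2 -2.76 ± 0.74, adjusted p = 0.0246). Leaving out either young naive library or aged naive 1 lost that call, up to 0.359.

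Tadys cells, compared with aged Tterm, differed at 2 of 26 peaks, both higher and both of Pax5, where 6.3% of all peaks were called and 2.06% were higher. At the 37 kb peak Tadys held 212 and 150 normalized reads, beside aged Tprog at 146 to 189 and above aged Tterm at 78.7 to 81.8 (log2 1.14 ± 0.28, adjusted p = 0.0159). The call was lost without Tadys 1 (0.89, adjusted p = 0.154), aged Tterm 3 (1.12, 0.0503) and with array weights (0.101). The other, chr4:44721491-44721850, was low, with 30.1 and 22.8 in Tadys and 1.72, 9.66 and 0 in aged Tterm (log2 3.14 ± 0.90, adjusted p = 0.0344), and was lost without any of these 5 libraries but aged Tterm 2, with a highest adjusted p of 0.149 without Tadys 1. At the 35 kb Pax5 peak Tadys held 68.1 and 91.2, between aged Tterm and aged Tprog without overlap, and neither difference passed the test (1.07 ± 0.39 from Tterm, adjusted p = 0.0900, and -0.91 ± 0.39 from Tprog, adjusted p = 0.146). Compared with aged Tprog, Tadys was higher at 1 of 26, the Cd79b peak above, with 6.65% of all peaks called and 2.61% higher.

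No single library was the highest at a majority of the 26 tested peaks of its table. Young endogenous Tprog 3 had the largest sum of the endogenous table (3114), ahead of young endogenous Tprog 1 (2775). Whether stray B cells had a part in these sums was not tested. Summed over the 26 tested peaks, young endogenous Tprog held 2315 to 3114 normalized reads, aged Tprog 2266 to 2721, Tadys 2076 to 2391, young Tterm 1822 to 2404 and aged Tterm 2058 to 2260. In the other table young naive held 1055 to 1083, aged naive 1039 to 1125, young OT-1 Tprog 1259 to 1326, aged OT-1 Tprog 987 to 1302, young OT-1 Tterm 870 to 1056 and aged OT-1 Tterm 806 to 952. Endogenous Tterm and Tprog overlapped in young mice and not in aged mice, and young OT-1 Tprog lay above every naive and Tterm library. At most 5 of 26 peaks were highest in the same library in the endogenous table, and at most 4 in the other.

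Other B cell genes were read the same way from a list of 20. Btk, Fcer2a, Fcmr, Fcrla and Spib had no tested peak near a gene end in either table, and Bank1 and Syk had none in the endogenous table. Summed per kilobase, the tested gene-end peaks of the list held 214 to 228 normalized reads in young endogenous Tprog and 247 to 262 in young Tterm, without overlap. Aged Tprog held 229 to 233 and aged Tterm 220 to 253, which overlapped. In the OT-1 and naive table the list held 120 to 128 in young naive, 113 to 116 in young OT-1 Tprog and 99.5 to 139 in young OT-1 Tterm, whose range took in both that of Tprog and that of naive cells. Young Tterm was higher than Tprog at 20 and lower at 8 of 96 tested peaks in the endogenous table, or 29.2% called against 25.6% over all peaks. Young OT-1 Tterm was higher than Tprog at 14 and lower at 4 of 113 in the other, or 15.9% against 7.63%. Pou2af1, a coactivator of octamer factors, was among the lower ones, by -0.94 ± 0.15 (adjusted p = 2.81e-05) at chr9:51213277-51214317 in young endogenous cells and by -2.08 ± 0.29 (adjusted p = 4.52e-05) at chr9:51213295-51214293 in young OT-1 cells. Blk, a Src family kinase of B cells, was among the higher ones (1.48 ± 0.28 in young endogenous cells, adjusted p = 2.53e-04). In young endogenous cells Blk, Cd37, Lyn, Plcg2 and Syk had called peaks that were higher only. Bank1, Cd72, Pou2af1 and Ralgps2 had lower ones only, and Pik3ap1 and Swap70 had both. The part of B cells in these differences was not tested.

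Cd74 was also set beside 9 genes of class II presentation and 14 myeloid and dendritic genes, since other cells make it. In young endogenous cells 8 class II peaks were lower in Tterm and 2 higher, of 33 tested (30.3% called, against 25.6% over all peaks), and in young OT-1 cells 3 were lower and none higher, of 39 (7.69%, against 7.63%). Myeloid and dendritic peaks gave 9 lower and 4 higher of 39 in young endogenous cells (33.3%) and 3 lower and 1 higher of 57 in young OT-1 cells (7.02%). Summed per kilobase, class II gene-end peaks held 284 to 333 normalized reads in young endogenous Tprog and 298 to 358 in young Tterm. Myeloid and dendritic gene-end peaks held 228 to 266 in young Tprog and 264 to 317 in young Tterm, and Lyz2, Csf1r, Adgre1, C1qa, Siglech and Xcr1 had no tested gene-end peak in either table. Their part in the Cd74 difference was not tested.

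Genes whose gene-end accessibility varied most like the members' own were taken after the mean of each group was subtracted, as a description over libraries that share depth and preparation. In the endogenous table (17 libraries, 11892 genes, with Cd74, Cd79b and Ebf1 as members) Adgra2 came first (Pearson r = 0.87, Spearman correlation 0.84), followed by Hbq1b (r = 0.87), Sostdc1 and Kash5 (both 0.85). In the other (21 libraries, 11484 genes, with Cd74, Cd79a, Cd79b, Ebf1 and Ms4a1) B3gnt8 came first (r = 0.84, Spearman correlation 0.85), then Lhx6 (0.79), Wap and Dock3 (both 0.78). None of the first 10 in the other table was on the list of B cell genes, and in the endogenous table Ralgps2 was (r = 0.79).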

How the data were processed

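As deposited by the authors, each table holds signal per peak, which is reads divided by 1 size factor per library. Whole reads were recovered from it for depth and for count tests. Per the submitters' processing notes, Bowtie2 2.2.9, Picard 2.8.0, SAMtools 1.3.1, MACS2 2.1.1, DESeq2 1.28.1 and the mm10 build were used. Read shifting, peak merging and whether table positions count from 0 or 1 are not given in the sources used here. Coordinates are printed as in the tables.

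Peaks with a mean of 10 or more normalized reads (71756 and 84091) were fitted with limma 3.58.1 in R 4.3.3 on log2(normalized reads + 1), with an intensity trend, all groups of a table in 1 model and, in the OT-1 and naive table, a term for sequencing batch 6. The p-values were adjusted by Benjamini-Hochberg over all tested peaks, and a call is an adjusted p under 0.05. With the batch term, a log2 difference can depart from the ratio of the means. Alternatives were a pseudocount of 5, no filter, equal library totals, array weights, a replicate block, edgeR 4.0.16, DESeq2 1.42.0, members within 10000 bp, no batch term, fits within batches and each library left out in turn. The fit was tested on simulated data. Tables were joined in Python 3.11.15 and plots drawn with matplotlib 3.10.9.

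Gene bodies were those of 21896 protein-coding genes of mm10. A gene-end peak lies no more than 1000 bp from the start or the end of a gene body. Strand and start were known for members with a promoter window only (Ebf1, Pax5, Cd79a and Blnk). Peaks were named where they lay near a start or gene end, were the highest of their gene, were among the 3 called peaks of lowest p in a direction of a comparison, or were called in 3 or more comparisons. Others named were chosen after their values were seen. The 10 genes most alike were ranked by Pearson correlation. Members, lists and comparisons were chosen with earlier results of these data known, so no pattern here is independent of those results. Lists of plasma cell, melanocyte, CD4 and regulatory T, and NK cell genes were counted too and are given among the other observations.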

Additional observations from a re-analysis of the deposited data

Results flagged for a closer look

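In 74 sets of 4 to 10 libraries, the highest or lowest value was set against the others of its group, and 3 lay far enough out to be listed. Chance alone gives about 1 in 20 such sets. Blnk (chr19:40962725-40963738) held 59.4 normalized reads in young OT-1 Tterm 7 and 18.3 to 35.1 in the other 6 libraries of that group. Cd79a at its far end (chr7:24901224-24902271) held 106 in the same library and 61.1 to 73.8 in the others. Cd79a at its start (chr7:24897053-24897354), which fell under the filter, held 13.3 in aged OT-1 Tterm 1 and 3.53 to 6.98 in the others. Young OT-1 Tterm 7 was also the highest of its group, by less, at some other peaks of the set, and the lowest at others. It held 12.5 at the Cd79a start against 4.14 to 9.56, 19.5 at a Cd79b peak (chr11:106313600-106314069) against 5.17 to 16.3, and 28.1 at the 35 kb Pax5 peak against 11.4 to 27.5. At the Cd74 peak (chr18:60803027-60805992) it held 145.3, under young OT-1 Tterm 2 at 145.4, in a group that lay between 120 and 145. At the other Cd79b peak (chr11:106314141-106314784) it held 24.2, under young OT-1 Tterm 1 at 38.2. Young OT-1 Tterm 7 was the lowest of its group at the 85 kb Pax5 peak, with 54.7 against 66.6 to 134. The same held at the second Ms4a1 peak (4.69 against 6.66 to 21.9) and at the Ebf1 peak chr11:44610676-44611850 (71.1 against 81.1 to 98.2). Without this library the member counts were as with it, 1 for young OT-1 Tterm against Tprog and 13 against naive.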

How the results depend on the processing

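Of 38 calls at member peaks, 9 held under every alternative and every left-out library. They were Cd74 and the Pax5 peaks 35, 37 and 46 kb past the start in young endogenous Tterm against Tprog, the 35 kb Pax5 peak in aged endogenous cells, the Ebf1 peak chr11:44892901-44893373 and the Pax5 peaks at 35 and 85 kb in young OT-1 Tterm against naive, and the 85 kb Pax5 peak in young OT-1 Tprog against naive. No single call changed direction, although counts by direction did. The causes of the changes below were not tested. Counts of called members that moved by a factor of 1.5 or more, or to 0, were as follows, and smaller shifts are not all listed. Endogenous Tprog by age went from 1 to 0 with the replicate block and with edgeR. Tadys against Tterm went from 2 to 1 with members within 10000 bp, the replicate block and edgeR, to 0 with array weights, and to 3 with a pseudocount of 5 and with DESeq2 (2 higher and 1 lower). Tadys against Tprog went from 1 to 0 with array weights, the replicate block and edgeR. Young OT-1 Tterm against Tprog went from 1 to 2 with a pseudocount of 5 and within batches 4 and 5, and to 0 with no filter. It went to 3 with equal totals, edgeR and DESeq2, and to 6 (2 higher and 4 lower) with array weights. Aged OT-1 Tterm against Tprog went from 2 to 4 with equal totals, 0 with array weights and within batch 6, 1 (lower) with no batch term and 1 with the replicate block, which was higher in place of the 2 lower calls. The aged count was 3 with edgeR and with DESeq2. Young Tterm against naive went from 13 to 8 with no filter, and young Tprog against naive from 7 to 4 with no filter and 11 with array weights. Aged against young naive went from 1 to 8 with array weights. Calls over all peaks moved with array weights too. Of 84091 they went from 4406 to 24583 in naive age and from 6413 to 13368 in young OT-1 Tterm against Tprog. They went from 20308 to 38977 in young Tprog against naive and from 12327 to 1861 in aged OT-1 Tterm against Tprog. Of 71756 they went from 4518 to 690 in Tadys against Tterm and from 4773 to 426 in Tadys against Tprog. Leaving out 1 library gave 4 to 6 calls for young and 2 to 4 for aged endogenous Tterm against Tprog, 0 to 1 for Tprog age, 0 to 2 for Tadys against Tterm and against Tprog (without Tadys 2 the latter gave 2 lower calls in place of 1 higher), 0 to 1 for young and 1 to 4 for aged OT-1 Tterm against Tprog (4 higher without aged Tprog 2, in place of 2 lower), 4 to 13 for Tterm and 1 to 5 for Tprog against naive, 0 to 1 for naive age and 0 for both Tterm age comparisons. Equal totals moved the median of all peaks from 0.15 to -0.25 in aged and from -0.01 to -0.13 in young OT-1 Tterm against Tprog, from -0.06 to -0.26 in Tterm and from -0.03 to -0.11 in Tprog against naive, from 0.11 to -0.12 in naive age and from -0.01 to -0.17 in young endogenous cells. Same-numbered libraries did not deviate together (33 pairs, r from -0.27 to 0.28, 4 above 0.1), so the numbers were not taken as pairing, and the replicate block gave 4 calls in young and 4 in aged endogenous cells. Groups of 2 libraries limit every comparison with naive, Tadys and OT-1 Tprog cells, and the peaks of Ms4a1 and the Cd79a start, under the filter on low values, were tested only in the fit without it.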

Other observations

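A list of 6 plasma cell genes had more higher than lower calls in young Tterm. Of its 44 tested endogenous peaks, 13 were higher and 2 lower in young Tterm than in young Tprog (34.1% called, against 25.6% over all peaks, with a median log2 difference of 0.36, against -0.01). In the other table, young OT-1 Tterm was higher than young naive cells at 26 and lower at 2 of 49 (57.1% called, against 40.3%, with a median of 0.999, against -0.06). The genes with higher peaks included Prdm1, a repressor used by plasma cells and by effector and exhausted T cells alike, and Xbp1, which supports secretion. Sdc1, Derl3 and Tnfrsf17 also had higher peaks in both comparisons. The lower peaks were of Derl3 and Prdm1 in the endogenous comparison and of Prdm1 and Xbp1 in the comparison with naive cells. Over the remaining lists, young endogenous Tterm against Tprog gave 1 higher and 0 lower of 12 melanocyte peaks, 7 higher and 12 lower of 69 peaks of CD4 and regulatory T cell genes, and 5 higher and 4 lower of 34 NK cell peaks. The 15 T lineage genes gave 26 higher and 20 lower of 170.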
